A study of Homo sapiens with 6 samples.

Results

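The genes described here are 42 that make up the ATF4 program with its amino acid transporters, found among the 60605 genes of the count table by matching a list of gene symbols to Ensembl identifiers. They are 7 transcription factors, 8 serine and one-carbon enzymes, 6 other enzymes of amino acid metabolism, 10 transporters, 5 feedback and stress genes, 3 eIF2α kinases, and 3 genes for a pair of secreted factors and a receptor. All 42 matched, and 40 had enough counts to be tested. NUPR1, a stress-induced transcriptional regulator, had 1 count in 1 TIM-1 library and 0 in the other 5 libraries. FGF21, a secreted metabolic hormone, had 0 counts in the TIM-1 libraries and 5 in 1 empty-vector library.

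The cells were UMUC3, an established human bladder cancer line, infected with pLVX-IRES-zsgreen virus that carried TIM-1 (3 libraries) or no insert (empty vector, 3 libraries). Both groups therefore share viral infection and the ZsGreen marker, a green fluorescent protein, and TIM-1, a phosphatidylserine receptor encoded by HAVCR1, came from a vector and not from the cell's own gene. Total counts per library ran from 14312387 to 18605914. HAVCR1 checked the labels, with between 7069 and 11479 counts in each TIM-1 library, against 4, 0 and 0 with the empty vector. Of 16 urothelial and epithelial markers, 6 had enough counts to be tested, while KRT20, UPK3A and EPCAM were at 0 in all libraries. In the blocked test described below, PPARG was higher in TIM-1 cells (0.62 ± 0.17 on the log2 scale), while KRT18 (-0.24 ± 0.06) and GATA3 (-1.25 ± 0.39) were lower (edgeR adjusted p = 0.0185, 0.00947 and 0.0457). None of these 3 was called when pair 2 or pair 3 was left out, and their part in the results below was not tested. All 5 mesenchymal markers were tested, and of 10 blood, immune and endothelial markers only HBA1, with 8 to 14 counts, was. In both groups the library numbered 1 stood apart, so its difference from replicates 2 and 3 is given for each member that passed the blocked test. It is given for only some of the other genes, and where it is left out replicate 1 may still have differed. Whether replicates were separate cultures is not in the labels, so the spread behind each p-value may be technical only.

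ATF4 is the effector of the integrated stress response. Kinases that sense missing amino acids, unfolded protein, heme shortage or viral RNA phosphorylate the translation factor eIF2α, which slows most protein synthesis but lets ribosomes reach the ATF4 reading frame through its upstream open reading frames. The ATF4 protein, paired with partners such as C/EBPγ, binds composite C/EBP-ATF elements and turns on genes for amino acid synthesis, uptake and tRNA charging. Because ATF4 is controlled largely at translation, counts of its mRNA are not a measure of its protein, and the protein was not measured here. Tumour cells use these genes to supply serine, glycine, asparagine and cystine for growth.

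A core of the composite element, TGATGNAA, was looked for on both strands in RefSeq promoter windows (GRCh38.p14, 250 bases before to 50 after a gene's start), which were given for 35 of the 42 members. Counted per gene, with a match in any of its windows, it occurred in 11 of these 35 (31.4%), against 2.69% of the 10431 tested genes with a promoter in the table and 4.46% of all 27305 genes in it. Counted per window, it occurred in 13 of the members' 57 windows (22.8%), against 1.98% of 15135 and 3.62% of 35116 windows. The narrower TGATGCAA, which the first motif includes, occurred in 6 members (17.1%), against 0.729% and 1.08% of the same genes. The members were listed as genes of the ATF4 program, so their higher share describes how the list was made and tests nothing. Among those with a match, FGF21 was not a tested gene. A match is a match of letters and not a shown binding site. The matches are printed below to show the shared element, each within 30 bases read along the gene's strand, with the match in capitals. On the opposite strand the motif reads as its reverse complement, as in the CHAC1 line.
CEBPG: cgcgcggcgtcTGATGCAAcctgccggcaa
MTHFD1L: gccgccggctcTGATGCAAtcgcgccgggc
SLC1A5: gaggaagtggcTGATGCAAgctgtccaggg
CHAC1: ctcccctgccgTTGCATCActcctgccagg
SLC1A4: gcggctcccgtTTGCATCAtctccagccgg
FGF21: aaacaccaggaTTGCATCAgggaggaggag
ASNS: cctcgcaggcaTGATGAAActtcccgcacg
SLC7A1: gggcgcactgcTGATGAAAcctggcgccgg
SLC38A1: tcagacccgaaTGATGAAAagggatcagct
ATF3: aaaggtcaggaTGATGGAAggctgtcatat

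The 6 exact TGATGCAA matches lie in the windows of CEBPG (chr19:33374060-33374089, plus strand), MTHFD1L (chr6:150866346-150866375, plus strand), SLC1A5 (chr19:46784893-46784922, minus strand), CHAC1 (chr15:40953251-40953280, plus strand), SLC1A4 (chr2:64989381-64989410, plus strand) and FGF21 (chr19:48755459-48755488, plus strand). Those of ASNS (chr7:97872458-97872487, minus strand), SLC7A1 (chr13:29595663-29595692, minus strand), SLC38A1 (chr12:46266502-46266531, minus strand) and ATF3 (chr1:212565205-212565234, plus strand) hold the looser form, and SLC3A2 has such a match 37 bases after its start. The ASNS match starts 68 bases before the RefSeq start. Of the members that passed the test below, 3 of 10 with a promoter in the table (ATF3, SLC3A2 and CHAC1) held the motif, against 8 of the 25 other members. SLC7A11, which also passed, had no promoter in the table, and the 25 include FGF21, which was not tested. So few genes cannot show whether the motif set the passing members apart.

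Across the program, most members read slightly lower in TIM-1 cells. With the replicate number as a block, 10 of the 40 tested members fell and 1 rose at an adjusted p under 0.05 (edgeR). Those that fell were PHGDH, PSAT1, MTHFD2, CBS, SLC3A2, SLC7A5, SLC7A11, ATF3, TRIB3 and CHAC1, and the one that rose was DDIT4. The background over all 14479 tested genes was 1.79% lower and 3.22% higher, so 25% of the tested members fell, against 1.79% of all genes. The median blocked log2 fold change (TIM-1 minus empty vector) was -0.15 over the members, 32 of them negative, and 0.0001 over all tested genes. Lower counts in such bulk libraries cannot tell fewer expressing cells from less RNA per cell.

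Without the block, edgeR called none of the 40 members in either direction, with 3 (CBS, SLC7A5 and SLC7A1) at an unadjusted p under 0.05, and DESeq2 also called 0. That test called 0.0138% of all genes higher, which is 2 genes, and 0% lower. The groups did not overlap for 5 members, MTHFD1, MTHFD1L, CBS, SLC7A1 and SLC7A5, all lower in TIM-1 cells, against 5.06% of all tested genes, and for 0 members that were higher, against 6.6%. In same-numbered pairs, 20 members were lower in TIM-1 cells in all 3 pairs and 4 were higher in all 3, beside 19.1% and 20.1% of all tested genes. The members' median pair differences were -0.08, -0.18 and -0.17 on the log2 scale for replicates 1, 2 and 3.

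The members differed more between replicate numbers than between TIM-1 and empty vector. With the group as a term, 22 of 40 members (55%) were lower in replicate 1 than in replicates 2 and 3 and 3 were higher (DDIT4, VLDLR and EIF2AK4), beside 12% of all genes lower and 11.6% higher (edgeR, adjusted p under 0.05). The median difference was -0.33 over the members and -0.01 over all tested genes. Both comparisons use the same 6 libraries, so their values are given side by side and no relation between them is drawn. What replicate 1 stands for is not stated in the labels, and its part in the TIM-1 results was not tested. Of the 11 members called with the block, 5 (PHGDH, PSAT1, SLC7A5, SLC7A11 and DDIT4) were called again with any 1 pair of libraries left out, with DESeq2, and with a block for replicate 1 alone. The other 6 were called neither with DESeq2 nor without the replicate 2 pair.

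**Figure D1:**
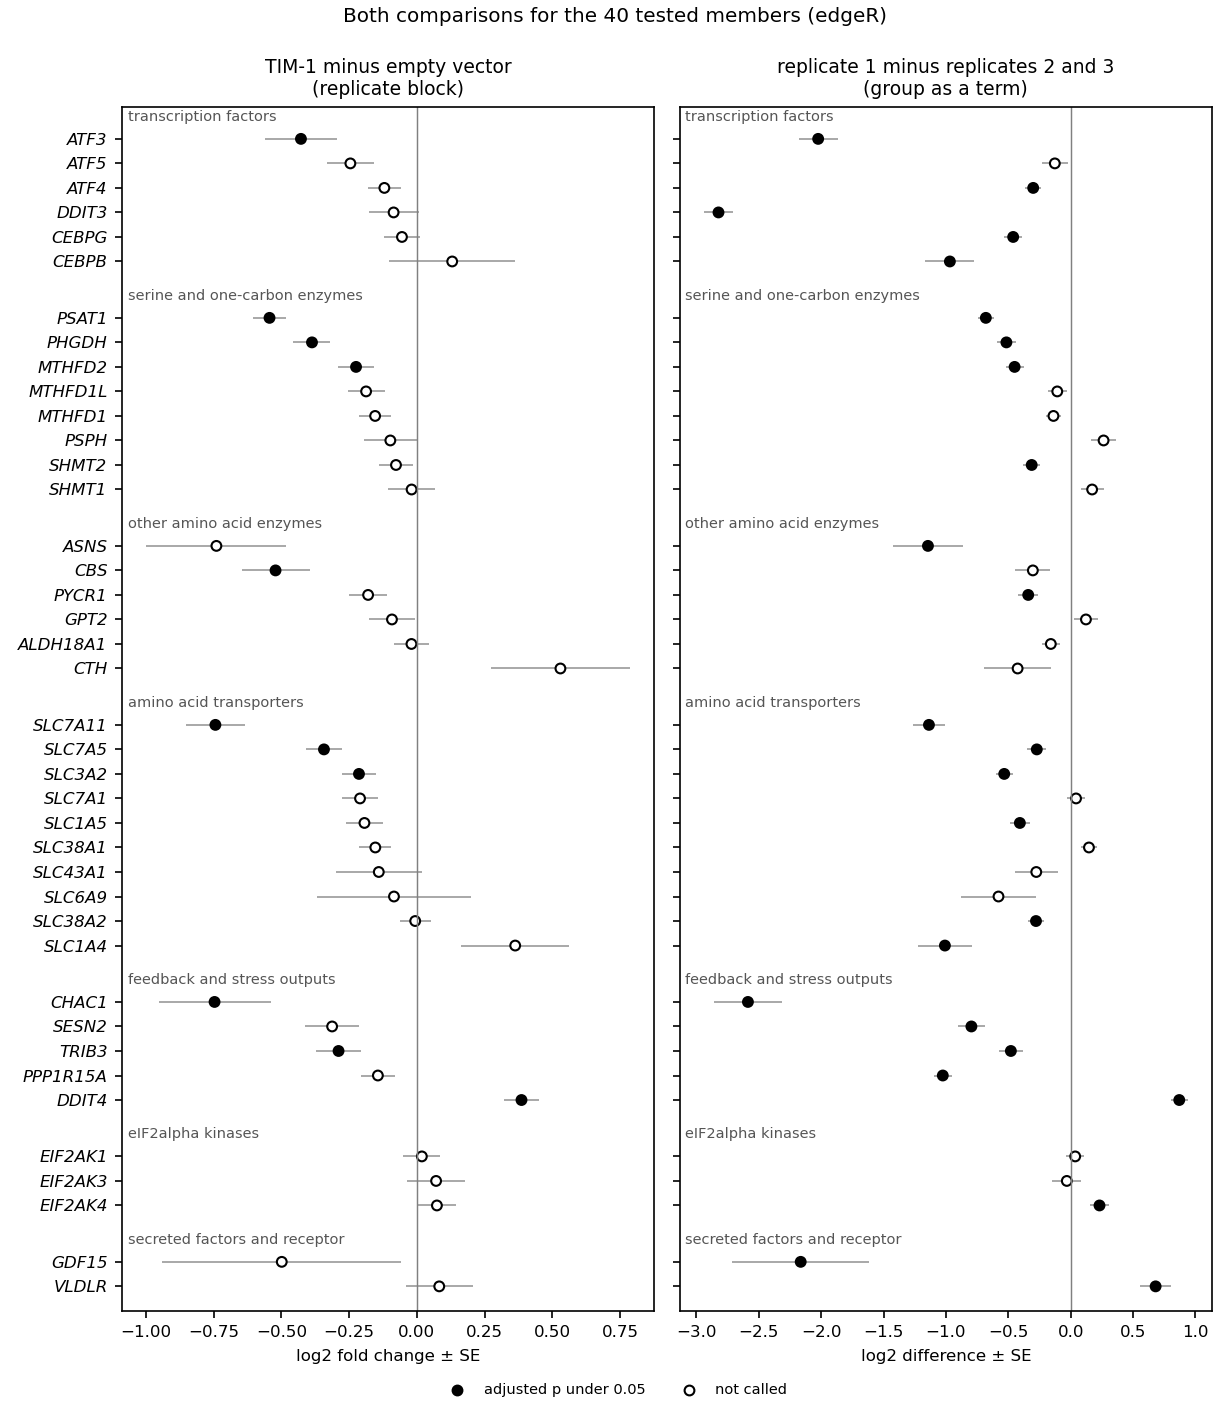
Log2 differences with standard errors for the 40 tested members, TIM-1 minus empty vector with the replicate block on the left and replicate 1 minus replicates 2 and 3 on the right; filled points have an adjusted p under 0.05 (edgeR). On the left 10 members are filled below 0 and 1, DDIT4, above it, and on the right 22 are filled below 0 and 3 above, over a wider range.

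The transcription factors differed little between TIM-1 and empty-vector cells. Of 6 tested, 1 (ATF3) fell and 0 rose with the block, and the list's median log2 fold change was -0.10. ATF4 (ENSG00000128272, chr22:39519695-39522685, plus strand; gene positions are from GENCODE 29 on GRCh38) was at 380.4, 442 and 475 CPM in TIM-1 cells and at 402, 528 and 483 CPM in empty-vector cells (CPM are read counts scaled to library size, given throughout in the order of replicates 1, 2 and 3). The groups overlapped, and its log2 fold change of -0.12 ± 0.06 (SE) with the block did not pass the test (edgeR adjusted p = 0.273). Replicate 1 held less ATF4 mRNA than the other two, with a log2 difference of -0.30 ± 0.06 (edgeR adjusted p = 0.00135).

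ATF3 (ENSG00000162772, chr1:212565334-212620777, plus strand), a stress-induced factor of the same bZIP family, had 4.00, 14.7 and 14.6 CPM in TIM-1 cells and 4.57, 20.2 and 20.6 CPM in empty-vector cells. It fell by 0.43 ± 0.13 on the log2 scale with the block (edgeR adjusted p = 0.0432), a call close to the threshold, while the unpaired test gave an adjusted p of 0.952 (edgeR). Replicate 1 was the low library of both groups, and its own difference of -2.02 ± 0.15 was larger than that between the groups.

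DDIT3, which encodes CHOP, the stress factor tied to cell death under prolonged stress, followed replicate 1 most of all members. It had 7.04, 48.9 and 55.9 CPM in TIM-1 cells and 8.08, 54.0 and 55.4 CPM in empty-vector cells, so that replicate 1 was low in both groups and the groups overlapped. Its blocked log2 fold change was -0.09 ± 0.09 (edgeR adjusted p = 0.678), and replicate 1 was lower than replicates 2 and 3 by -2.82 ± 0.12 (edgeR adjusted p = 5.94e-15). DDIT3 shares 27.2% of its exon bases with MARS1 on the opposite strand, and whether reads were counted by strand is unknown here.

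CEBPB, an ATF4 partner and inflammatory factor, had the largest positive value of the group without passing the test, with 80.4, 132 and 119.7 CPM in TIM-1 cells and 53.2, 115 and 152 CPM in empty-vector cells. The pairs disagreed in direction for CEBPB, and its blocked log2 fold change was 0.13 ± 0.23 (edgeR adjusted p = 0.847). Without the replicate 3 pair it was 0.38 (edgeR adjusted p = 0.000149), a call that rests on leaving out that pair. CEBPG, the gene of the partner C/EBPγ, had 78.7, 109 and 109.8 CPM in TIM-1 cells and 83.1, 116 and 110.3 CPM in empty-vector cells. ATF5, a factor also controlled through upstream reading frames, had 39.5, 35.2 and 39.8 CPM in TIM-1 cells and 38.8, 44.2 and 53.0 CPM in empty-vector cells. Neither CEBPG (-0.05 ± 0.07) nor ATF5 (-0.25 ± 0.09) passed the blocked test (edgeR adjusted p = 0.726 and 0.0935), and ATF5 shares 21.2% of its exon bases with NUP62 on the opposite strand. All 6 tested factors had a negative replicate 1 difference, and 5 of them passed that test, all but ATF5 (-0.13 ± 0.10).

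Serine synthesis held the member with the smallest adjusted p, PSAT1. Of the 8 serine and one-carbon enzymes, all tested, PHGDH, PSAT1 and MTHFD2 fell with the block, 0 rose, and the median log2 fold change was -0.17. PSAT1 (ENSG00000135069, chr9:78297143-78330093, plus strand), which transfers an amino group to make phosphoserine, had 138, 219.8 and 219 CPM in TIM-1 cells and 199, 318 and 326 CPM in empty-vector cells. Each TIM-1 library was lower than the empty-vector library of its number, by -0.53, -0.53 and -0.57 on the log2 scale, although the groups overlapped because replicate 1 was low in both. The blocked log2 fold change of PSAT1 was -0.54 ± 0.06 (edgeR adjusted p = 6.35e-09), and the unpaired value was -0.55 ± 0.24 (edgeR adjusted p = 0.891). Its replicate 1 difference was -0.68 ± 0.07.

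PHGDH (ENSG00000092621, chr1:119648411-119744226, plus strand), the enzyme that draws serine synthesis out of glycolysis, had 112, 142 and 143 CPM in TIM-1 cells and 125, 191 and 212 CPM in empty-vector cells. Its difference was -0.15 in the replicate 1 pair and -0.43 and -0.57 in the other two. PHGDH fell by 0.39 ± 0.07 on the log2 scale with the block (edgeR adjusted p = 0.000172), and replicate 1 was lower than replicates 2 and 3 by -0.52 ± 0.08. The third enzyme of the pathway, PSPH, which releases free serine, did not pass the test at -0.10 ± 0.10 (edgeR adjusted p = 0.647). Per kb of exon, PSAT1 stood at 5.18, 6.52 and 6.45 times PHGDH in TIM-1 cells and at 6.71, 7.01 and 6.48 times in empty-vector cells, a ratio chosen after the values were seen. The length used was every base annotated as exon, 9217 for PHGDH and 2188 for PSAT1, so the size of this ratio depends on it.

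MTHFD2 (ENSG00000065911, chr2:74198562-74217565, plus strand), a mitochondrial enzyme of the one-carbon cycle that is high in many tumours, had 101, 149 and 146 CPM in TIM-1 cells and 129, 169 and 161 CPM in empty-vector cells. It fell by 0.22 ± 0.07 on the log2 scale with the block (edgeR adjusted p = 0.0298), with a replicate 1 difference of -0.45 ± 0.07, and it shares 27.2% of its exon bases with SLC4A5 on the opposite strand. The folate enzyme MTHFD1, which works in the cytosol, had 232, 253 and 253 CPM in TIM-1 cells and 255, 281 and 285 CPM in empty-vector cells. MTHFD1L, the mitochondrial enzyme that releases formate, had 116, 119 and 116 CPM in TIM-1 cells and 121, 127 and 151 CPM in empty-vector cells. The groups did not overlap for MTHFD1 or MTHFD1L, but the blocked differences of -0.15 ± 0.06 and -0.19 ± 0.07 did not pass the test (edgeR adjusted p = 0.133 and 0.101). The serine hydroxymethyltransferases, which pass a carbon from serine to folate, were nearest to equal, at -0.02 ± 0.09 for the cytosolic SHMT1 and -0.08 ± 0.06 for the mitochondrial SHMT2 (edgeR adjusted p = 0.943 and 0.552).

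Of the 6 other enzymes of amino acid metabolism, only CBS fell and 0 rose with the block (median -0.14). CBS (ENSG00000160200, chr21:43053191-43076943, minus strand), which joins homocysteine and serine on the way to cysteine, had 9.24, 10.5 and 13.7 CPM in TIM-1 cells and 14.3, 15.6 and 17.9 CPM in empty-vector cells. The groups did not overlap, and CBS fell by 0.52 ± 0.13 on the log2 scale with the block (edgeR adjusted p = 0.00669). The unpaired value was -0.51 ± 0.17 (edgeR adjusted p = 0.775), and the replicate 1 difference of -0.30 ± 0.14 did not pass its test (edgeR adjusted p = 0.123). CBS has a near-identical annotated copy, CBSL, which took 41 counts over all libraries against 1334 for CBS, and how reads were divided between them is unknown here.

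CTH, the enzyme after CBS in the same route, leaned the other way without passing the test. It had 2.62, 3.59 and 3.45 CPM in TIM-1 cells and 1.82, 2.72 and 2.17 CPM in empty-vector cells, a blocked log2 fold change of 0.53 ± 0.26 (edgeR adjusted p = 0.258). ASNS, asparagine synthetase and a classic ATF4 target, was assigned few reads, with 1.17, 2.60 and 2.54 CPM in TIM-1 cells and 1.94, 4.95 and 3.74 CPM in empty-vector cells. Its blocked log2 fold change was -0.74 ± 0.26, with an adjusted p of 0.0839 (edgeR). The ASNS exons share 44.6% of their bases with a second gene annotated on the same strand, ENSG00000284707, so reads in the shared part may have been split or left out. ENSG00000284707 took 26 counts over all libraries and the near copy ASNSP1, a pseudogene, took 97, against 279 for ASNS, so the level of ASNS is uncertain. ALDH18A1, which starts proline synthesis and had the highest level per kb of these enzymes, was at 103, 110.1 and 118 CPM in TIM-1 cells and 103, 115 and 118 CPM in empty-vector cells. The proline enzyme PYCR1 (-0.18 ± 0.07) and the alanine aminotransferase GPT2 (-0.09 ± 0.08) did not pass the blocked test either (edgeR adjusted p = 0.135 and 0.608).

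Of the 10 transporters, all tested, SLC3A2, SLC7A5 and SLC7A11 fell with the block and 0 rose, and the median log2 fold change was -0.17. SLC3A2 encodes the heavy chain CD98 that carries light chains to the cell surface, SLC7A5 the light chain LAT1 that imports leucine and other large neutral amino acids, and SLC7A11 the light chain xCT that exchanges glutamate for cystine. A pair of other light chains of SLC3A2, named here after their values were seen, did not pass the blocked test, SLC7A6 at 0.13 ± 0.10 and SLC7A7 at -0.08 ± 0.43 (edgeR adjusted p = 0.514 and 0.948).

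SLC7A11 (ENSG00000151012, chr4:138164097-138242349, minus strand) had 8.76, 23.3 and 22.3 CPM in TIM-1 cells and 18.3, 39.1 and 32.0 CPM in empty-vector cells. The TIM-1 library was the lower in each pair, by -1.06, -0.74 and -0.52 on the log2 scale, and the groups overlapped through the low replicate 1 of the empty vector. SLC7A11 fell by 0.74 ± 0.11 on the log2 scale with the block (edgeR adjusted p = 3.22e-06), while the unpaired value was -0.71 ± 0.42 (edgeR adjusted p = 0.906). Replicate 1 was lower than replicates 2 and 3 by -1.14 ± 0.13.

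SLC7A5 (ENSG00000103257, chr16:87830023-87869488, minus strand) had 213, 232 and 233 CPM in TIM-1 cells and 236, 289.9 and 341 CPM in empty-vector cells, with no overlap. It fell by 0.34 ± 0.06 with the block (edgeR adjusted p = 0.000473), and the unpaired value was -0.36 ± 0.12 (edgeR adjusted p = 0.775). The replicate 1 difference was -0.27 ± 0.08, smaller than that of SLC7A11.

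SLC3A2 (ENSG00000168003, chr11:62856102-62888875, plus strand) had 153, 207 and 218 CPM in TIM-1 cells and 168, 247 and 259 CPM in empty-vector cells. It fell by 0.21 ± 0.06 on the log2 scale with the block (edgeR adjusted p = 0.0290), with a replicate 1 difference of -0.53 ± 0.07. The light chains can be set against the heavy chain per kb of exon, a ratio chosen after the values were seen and not tested. The SLC7A11 to SLC3A2 ratio was 0.0307, 0.0605 and 0.0550 in TIM-1 cells and 0.0586, 0.0848 and 0.0664 in empty-vector cells. That of SLC7A5 to SLC3A2 was 1.52, 1.22 and 1.17 in TIM-1 cells and 1.54, 1.28 and 1.44 in empty-vector cells. By both ratios the TIM-1 library was lower in each pair, and the groups overlapped.

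**Figure D2:**
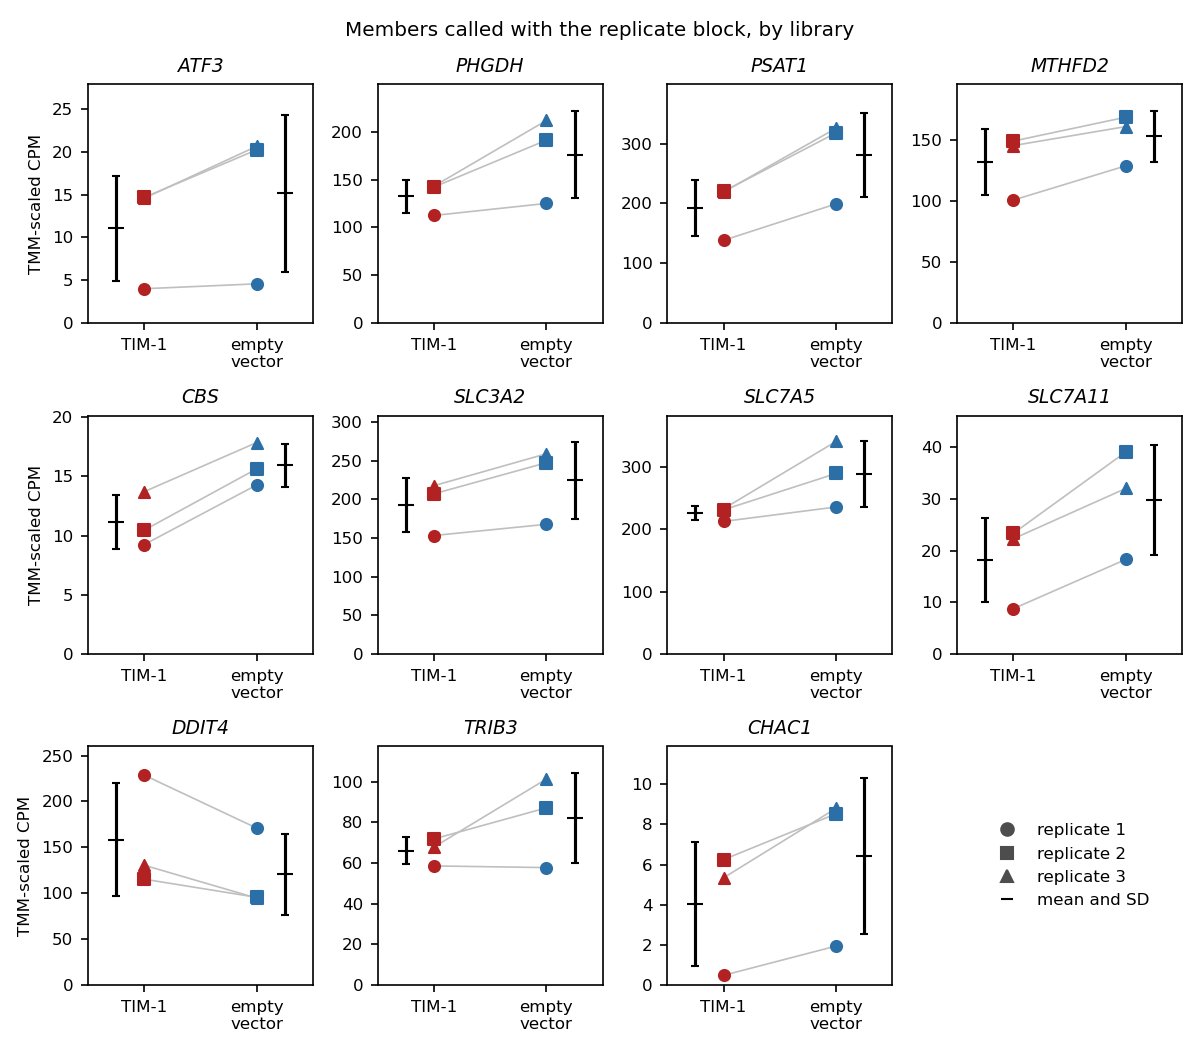
CPM (scaled with TMM factors) of the 11 members called with the replicate block, 1 point per library with the mean and SD, TIM-1 on the left and empty vector on the right of each panel; the marker shape gives the replicate number and lines join libraries of the same number. The groups do not overlap for CBS and SLC7A5, and replicate 1 is the lowest TIM-1 library in every panel except that of DDIT4, where it is the highest.

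The cationic transporter SLC7A1, which brings in arginine and lysine, had 125, 113 and 111 CPM in TIM-1 cells and 130.2, 135 and 138 CPM in empty-vector cells. The groups did not overlap, and replicate 1 did not stand apart (0.04 ± 0.07, edgeR adjusted p = 0.711), but the blocked log2 fold change of -0.21 ± 0.07 did not pass the test (edgeR adjusted p = 0.0524). SLC38A2, the sodium-coupled transporter of small neutral amino acids and the highest transporter per kb, had 650.1, 818 and 789 CPM in TIM-1 cells and 669.7, 814 and 779 CPM in empty-vector cells. Its blocked log2 fold change was -0.01 ± 0.06 (edgeR adjusted p = 0.973). SLC1A4, an exchanger of serine and alanine, had the only positive value, at 3.10, 6.50 and 6.10 CPM in TIM-1 cells and 2.44, 4.33 and 5.43 CPM in empty-vector cells, without passing the test (0.36 ± 0.20, edgeR adjusted p = 0.335). The remaining transporters were the glutamine carriers SLC1A5 (-0.19 ± 0.07) and SLC38A1 (-0.15 ± 0.06), the glycine carrier SLC6A9 (-0.08 ± 0.28) and the neutral amino acid carrier SLC43A1 (-0.14 ± 0.16), none of which passed the blocked test (edgeR adjusted p = 0.0862, 0.123, 0.920 and 0.697).

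The feedback and stress genes split. Of 5 tested, DDIT4 rose with the block and TRIB3 and CHAC1 fell, with a list median of -0.29. DDIT4 (ENSG00000168209, chr10:72273920-72276036, plus strand) encodes REDD1, an inhibitor of mTORC1 that is induced by hypoxia and glucocorticoids as well as by ATF4. It had 229, 115 and 130.5 CPM in TIM-1 cells and 171, 95.5 and 94.7 CPM in empty-vector cells. TIM-1 was higher in each pair, by 0.42, 0.27 and 0.46 on the log2 scale, and the groups overlapped because replicate 1 was high in both. The blocked log2 fold change of DDIT4 was 0.39 ± 0.07 (edgeR adjusted p = 6.33e-05), the unpaired one 0.39 ± 0.35 (edgeR adjusted p = 0.921), and the replicate 1 difference 0.87 ± 0.07.

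TRIB3 (ENSG00000101255, chr20:362835-397559, plus strand), a pseudokinase that restrains ATF4 and AKT, had 58.6, 71.8 and 67.8 CPM in TIM-1 cells and 57.8, 87.1 and 101 CPM in empty-vector cells. It fell by 0.29 ± 0.08 on the log2 scale with the block (edgeR adjusted p = 0.0294), although the replicate 1 pair differed by 0.02 only. The replicate 1 difference of TRIB3 was -0.48 ± 0.10. CHAC1 (ENSG00000128965, chr15:40952962-40956519, plus strand), which breaks down glutathione, had 0.483, 6.25 and 5.34 CPM in TIM-1 cells and 1.94, 8.53 and 8.81 CPM in empty-vector cells. CHAC1 fell by 0.75 ± 0.21 (log2 scale; edgeR adjusted p = 0.0215), with pair differences of -2.01, -0.45 and -0.72 and a replicate 1 difference of -2.59 ± 0.27. The difference of -2.01 rests on few reads, 7 counts in TIM-1 replicate 1 against 31 in empty-vector replicate 1. The leucine sensor SESN2 (-0.31 ± 0.10) and PPP1R15A (-0.14 ± 0.06), the subunit that directs a phosphatase to eIF2α and so ends the response, did not pass the blocked test (edgeR adjusted p = 0.0512 and 0.189).

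Of the 3 eIF2α kinases tested, 0 passed the blocked test in either direction (edgeR; 0 at an unadjusted p under 0.05; median 0.07). EIF2AK1, the heme-regulated kinase and the highest of them per kb, had 102, 106 and 102 CPM in TIM-1 cells and 107, 96.8 and 103 CPM in empty-vector cells. EIF2AK4, which senses uncharged tRNA and is known as GCN2, had 83.8, 72.5 and 72.5 CPM in TIM-1 cells and 81.2, 67.5 and 68.8 CPM in empty-vector cells. EIF2AK3, the endoplasmic reticulum kinase PERK, averaged 22.3 ± 1.73 CPM in TIM-1 cells and 21.3 ± 2.33 CPM in empty-vector cells (SD, n = 3 each). Their blocked log2 fold changes were 0.02 ± 0.07, 0.07 ± 0.07 and 0.07 ± 0.11 in that order (edgeR adjusted p = 0.927, 0.635 and 0.791).

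Of the last group, GDF15 and VLDLR were tested and neither passed. GDF15, a secreted stress cytokine, had 0.414, 1.18 and 0.864 CPM in TIM-1 cells and 0.188, 2.04 and 1.45 CPM in empty-vector cells, a blocked log2 fold change of -0.50 ± 0.44 (edgeR adjusted p = 0.596). VLDLR, a lipoprotein receptor, had 20.3, 11.4 and 12.6 CPM in TIM-1 cells and 17.9, 12.8 and 10.8 CPM in empty-vector cells, at 0.08 ± 0.12 (edgeR adjusted p = 0.789). VLDLR was higher in replicate 1 by 0.68 ± 0.13 and GDF15 lower by -2.16 ± 0.55 (edgeR adjusted p = 0.000286 and 0.00555).

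Levels of different genes were compared per kb of exon. The length takes every base annotated as exon in any transcript of a gene. It may exceed the length of the RNA present, so the order of genes is approximate. ATF4 was the highest member, at a mean of 172 CPM per kb in TIM-1 cells and 187 in empty-vector cells, followed by SLC38A2 at 114 in both groups and PSAT1 at 87.9 in TIM-1 cells and 128 in empty-vector cells. At the low end, ASNS averaged 0.472 CPM per kb in TIM-1 cells and 0.795 in empty-vector cells, and SLC6A9 0.442 in TIM-1 cells and 0.469 in empty-vector cells. The place of ASNS is uncertain, because reads in the exon bases it shares with another gene may have been left out. The other serine synthesis enzymes lay lower than PSAT1, with PHGDH at 14.4 CPM per kb in TIM-1 cells and 19.1 in empty-vector cells, and PSPH at 10.0 in TIM-1 cells and 10.7 in empty-vector cells. Before division by length PSAT1 and PHGDH lay closer, at means of 192.4 and 132.5 CPM in TIM-1 cells and 280.8 and 175.9 CPM in empty-vector cells.

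**Figure D3:**
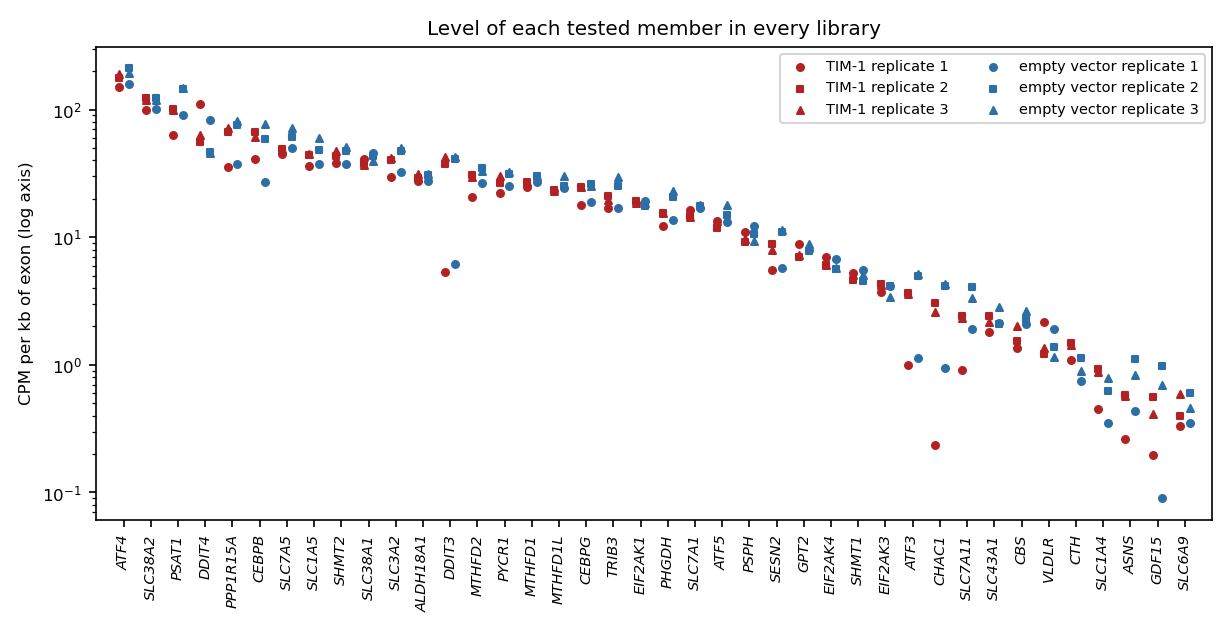
CPM per kb of exon on a log axis for the tested members in order of their mean level, 1 point per library, with marker shapes for the replicate number. ATF4, SLC38A2 and PSAT1 stand at the high end and SLC6A9, GDF15 and ASNS at the low end, and the groups lie far closer together than the genes do. The level of ASNS is uncertain because it shares exon bases with another gene.

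Other genes of the pathway were counted in lists. Of 20 cytosolic aminoacyl-tRNA synthetases, which load tRNAs and are partly ATF4 targets, 9 fell and 0 rose with the block (edgeR), with a median of -0.18, and 12 were lower and 1 higher in replicate 1. Over all tested genes, 1.79% fell and 3.22% rose with the block, and 12% were lower and 11.6% higher in replicate 1. The 3 with the smallest blocked p were GARS1 for glycine, at 159.6 ± 21.9 CPM in TIM-1 cells and 204 ± 39.8 CPM in empty-vector cells, SARS1 for serine, at 188 ± 20.1 CPM in TIM-1 cells and 229 ± 39.9 CPM in empty-vector cells, and YARS1 for tyrosine, at 191 ± 17.8 CPM in TIM-1 cells and 231 ± 37.4 CPM in empty-vector cells (SD, n = 3 each). Their blocked log2 fold changes were -0.34 ± 0.07, -0.28 ± 0.06 and -0.27 ± 0.06 (edgeR adjusted p = 0.000448, 0.00307 and 0.00461). The count of 9 depended on pairs 2 and 3. Leaving out pair 2 kept 1 synthetase called lower (GARS1), and leaving out pair 3 kept 3 (GARS1, MARS1 and SARS1). Leaving out pair 1 gave the same 9, and DESeq2 called 6. Without the block edgeR called 0 of the 20, with 3 at an unadjusted p under 0.05.

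Of 18 tested ATF4 targets outside the members, 3 rose and 5 fell with the block (median -0.14), beside 3.22% and 1.79% of all tested genes. These counts became 2 and 1 when the pair numbered 2 was left out, and 3 and 3 when that numbered 3 was. Those with the smallest p did not share a direction. HMOX1, which breaks down heme, had 157, 392 and 418 CPM in TIM-1 cells and 236, 506 and 509 CPM in empty-vector cells and fell by 0.41 ± 0.06 (log2 scale; edgeR adjusted p = 7.26e-06). VEGFA, the angiogenic factor also induced by hypoxia, had 81.6, 53.5 and 52.2 CPM in TIM-1 cells and 60.2, 36.3 and 35.6 CPM in empty-vector cells and rose by 0.52 ± 0.08 (edgeR adjusted p = 7.57e-06). TXNIP, a glucose-responsive inhibitor of thioredoxin, had 7.24, 8.11 and 7.83 CPM in TIM-1 cells and 4.07, 3.77 and 2.11 CPM in empty-vector cells and rose by 1.24 ± 0.20 (edgeR adjusted p = 2.13e-05). Replicate 1 was higher for VEGFA (0.68 ± 0.08), as for DDIT4, lower for HMOX1 (-1.23 ± 0.07), and not called for TXNIP (0.12 ± 0.22, edgeR adjusted p = 0.739).

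Among 16 tested enzymes of methionine, proline, glutamine and transamination, only BCAT1 passed, a cytosolic aminotransferase of branched-chain amino acids. It fell to 93.3, 140.0 and 138 CPM in TIM-1 cells, against 125, 187 and 199 CPM in empty-vector cells, by 0.46 ± 0.06 on the log2 scale with the block (edgeR adjusted p = 1.63e-06). Of 18 genes of the eIF2 and eIF2B machinery only IMPACT, an inhibitor of GCN2, fell, at 22.3 ± 1.55 CPM in TIM-1 cells and 29.1 ± 0.655 CPM in empty-vector cells (SD, n = 3 each; -0.39 ± 0.10, edgeR adjusted p = 0.0126). IMPACT was not called with DESeq2 (adjusted p = 0.123) or without the replicate 2 pair (edgeR adjusted p = 0.124), and 1 call in 18 is near the background. Over all tested genes 3.22% rose and 1.79% fell with the block, and 2656 of 14479 had an unadjusted p under 0.05 (edgeR). The blocked test called 0 of 13 tested amino acid transporters outside the members (edgeR). It also called 0 of 16 tested folate and glycine cycle genes. These counts of 0 are near the background, as is the 1 call in 16 of the BCAT1 list. At an unadjusted p under 0.05 (edgeR) were 6 of the transporters and 4 of the folate and glycine cycle genes, and DESeq2 called 0 of either. Leaving out pair 1 called 4 of these transporters and 2 of the folate and glycine cycle genes, and leaving out pair 3 called 1 transporter. The highest of these transporters were SLC38A10 (0.05 ± 0.07) and SLC6A6 (0.24 ± 0.08), and DLD, an enzyme of the glycine cleavage system, had a log2 fold change of -0.15 ± 0.06.

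The ATF6 and XBP1 branches of the unfolded protein response act in parallel to PERK and ATF4. Of 20 genes, 0 were called with the block by edgeR (1 at an unadjusted p under 0.05) and 0 by DESeq2, with a median of 0.04 and a range of -0.14 to 0.14. Over all tested genes 3.22% rose and 1.79% fell, so a count of 0 in 20 is near the background. HSPA5, the chaperone BiP, averaged 2166 ± 990.3 CPM in TIM-1 cells and 2111 ± 1008 CPM in empty-vector cells (SD, n = 3 each), and the chaperone CALR 1494 ± 220 CPM in TIM-1 cells and 1389 ± 256 CPM in empty-vector cells. The same 20 genes differed strongly by replicate, with 14 lower and 1 higher in replicate 1, beside 12% and 11.6% of all tested genes. Their median there was -0.53, and HSPA5 differed by -1.46.

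**Figure D4:**
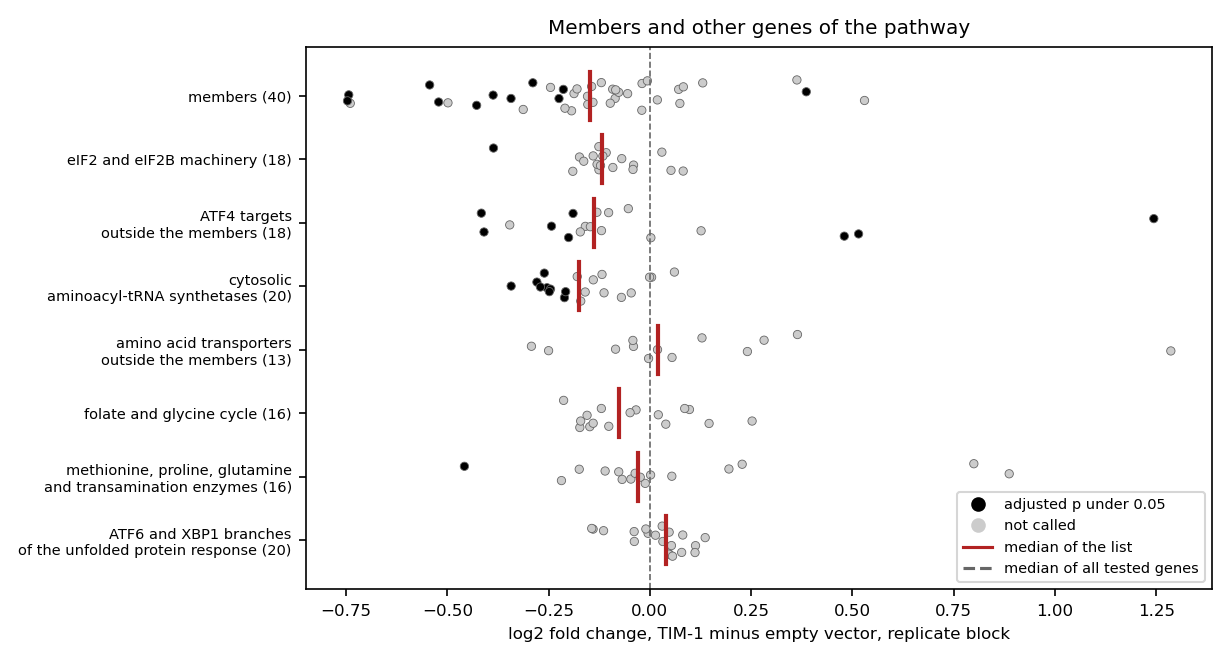
Blocked log2 fold changes, TIM-1 minus empty vector, with the tested members pooled in 1 row and 1 row for each list of other pathway genes. Each point is 1 gene, black where the adjusted p was under 0.05 (edgeR). A line marks the median of each row, and a dashed line the median of all tested genes. The tRNA synthetases lie mostly below 0 with 9 called, while the ATF6 and XBP1 list lies between -0.14 and 0.14 with 0 called.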

How the data were processed

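Total RNA of 6 UMUC3 libraries was sequenced, and the authors deposited raw read counts per Ensembl gene, whole numbers with no normalization. The submitters' processing notes name HISAT2 2.0.5, featureCounts 1.5.0-p3, DESeq2 1.16.1 and hg38. Annotation release, strand setting and multi-mapping rule are unknown here, so overlapping genes and near copies may share or lose counts. Groups came from the treatment labels and replicate numbers from the titles. Total counts ran from 14312387 to 18605914. Within-group libraries differed beyond sampling noise (chi-square per degree of freedom 4.18 to 27.3), so none was counted as a copy. Symbols were found for 60593 of 60605 identifiers, and GENCODE 29 gave positions and exon lengths for 58337.

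Genes passing filterByExpr (minimum count 10) numbered 14479. The test was edgeR's robust quasi-likelihood F test (edgeR 4.0.16, TMM scaling, R 4.3.3), two-sided, with Benjamini-Hochberg adjustment over all tested genes and a threshold of 0.05. The 3 fits used all 6 libraries: groups without another term, groups with the replicate number as a block, and replicate 1 against replicates 2 and 3 with the group as a term. The design fixed the unpaired fit as the first; the blocked values stand beside it because same-numbered libraries, each taken as its deviation from its group mean, correlated above 0.1 for all 3 numbers (0.53, 0.23 and 0.26). The labels do not say what the numbers mark. Libraries of different numbers correlated between -0.40 and 0.26, so the pairing is clear for replicate 1 only. CPM values use TMM-scaled library sizes, and a positive log2 fold change means higher in TIM-1 cells.

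The members, the other lists and the tests were chosen with earlier results of these data known, so lists are described by counts and medians and not tested. Values per library were given for members called in either fit, the transcription factors, the highest and the most positive and negative member of each role, and members whose groups do not overlap; other lists show up to 3 called genes with the smallest p, or the 2 of highest level, of which 1 is not reported here. The fits were checked on simulated data. For the unpaired and blocked fits these data held no replicate difference, and the changes put in were larger than the members' blocked changes. The check therefore does not show how reliable the blocked calls are. Alternatives were DESeq2 1.42.0, other scalings, no low-count filter, a GC offset, a block for replicate 1 only, and leaving out libraries or pairs. Promoter sequences are from RefSeq (GRCh38.p14).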

Additional observations from a re-analysis of the deposited data

How the results depend on the processing

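Under the alternatives run, no member called in the comparison concerned changed sign, while members near 0 that were not called, such as SLC38A2 and EIF2AK1, did. In the unpaired comparison, 0 members were called in most of them; the replicate block called 1 higher and 10 lower, a block for replicate 1 only called 1 higher and 6 lower, and dropping the low-count filter called 1 lower (PHGDH, -0.42, edgeR adjusted p = 0.0419). Leaving out 1 library at a time called 0 members in either direction and moved the unpaired median between -0.25 (without empty-vector replicate 1) and -0.075 (without TIM-1 replicate 1). With the replicate block, the 10 lower calls became 4 with DESeq2, 18 with a GC offset and 6 with a block for replicate 1 only. Leaving out each pair in turn gave 4 to 13 lower and 1 to 2 higher calls, and the median stayed between -0.17 and -0.14. Without the replicate 2 pair ATF3, MTHFD2, CBS, SLC3A2, TRIB3 and CHAC1 were no longer called, without the replicate 3 pair ATF3, SLC3A2, TRIB3 and CHAC1 were not, and without the replicate 1 pair MTHFD2 and CHAC1 were not, while ATF5, MTHFD1L, SLC1A5, SLC7A1 and SESN2 were then called lower; the causes were not tested. In the replicate 1 comparison, scaling by total counts called 5 members higher, against 3. The share of members with the promoter motif was 22.8% per window, against 31.4% per gene; this count and the leave-out counts of the other lists were added after the data were seen. The blocked fit has few residual degrees of freedom, and members of a few CPM (GDF15, SLC6A9, ASNS, CTH, CHAC1 and SLC1A4) have the larger standard errors.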
